A study of Homo sapiens with 8 samples.

Results

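Mitochondrial ribosomal proteins were followed through the symbols that begin with MRPL (large subunit) or MRPS (small subunit) and a number, leaving out pseudogene symbols that end in P and a digit. The deposited table held 74 such genes among 11530 genes in all, and the rule reads the symbols and no measured value. The mitochondrial ribosome translates the few proteins that the mitochondrial genome encodes, which are core subunits of the respiratory chain and of ATP synthase. Its own proteins are encoded in the nucleus, made in the cytosol and imported, and they assemble on mitochondrial rRNA with the help of GTPases, rRNA methyltransferases and other factors. Many members have a bacterial counterpart and many others occur in mitochondria alone. Leukaemia cells of the myeloid lineage are known for a strong reliance on mitochondrial translation.

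RNA was sequenced from MonoMac 6, an established human line of monocytic type that came from an acute leukaemia. The control group had 4 libraries. The APRIL group had 4 libraries of cells given human APRIL, the TNF-family cytokine encoded by TNFSF13, at 100 ng/mL for 24 h. The APRIL-treated cells were in medium that the labels describe as free of serum. The serum content of the control medium is not given there, and baseline cytokines are said to be in the medium of both groups. MonoMac 6 is a single line, and nothing says that the libraries came from separate cultures. The p-values thus set the difference between the groups against the spread among these libraries, which may be a technical spread. The library kit enriches polyadenylated RNA without keeping its strand, and a read in a member that overlaps another gene cannot be assigned to either. Each RNA sample is from many cells, so fewer cells of a kind and less RNA per cell cannot be told apart.

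The values are log2 read abundances that the authors had scaled per library by TMM, the trimmed mean of M values, and a change is APRIL minus control on that log2 scale with its standard error. The table gives the libraries no number, so each is named by its group and its place among that group's columns. Whole reads could be recovered from the values of 11171 genes, and these summed to between 948166 (APRIL column 3) and 5386479 (APRIL column 2) reads per library. APRIL column 3 stood apart most, and control column 1 next. The TMM factor of APRIL column 3 was 0.875 against 1.00 to 1.03 in the other libraries. Its values were the highest of the 8 for 33.6% and the lowest for 32.9% of all tested genes, those of control column 1 for 26.3% and 25.7%, and those of any other library for at most 11.6%. Across genes the deviations of APRIL column 3 ran against transcript length (Spearman's rho = -0.56, 10808 genes, which share the library). Control column 1 ran against GC content (rho = -0.74) and APRIL column 4 with it (rho = 0.65). Of 12 monocytic marker genes 11 were in the table, with log2 summed levels of 11.19 to 11.27 with APRIL and 11.29 to 11.54 in control. None of 4 erythroid and none of 6 fibroblast, epithelial and endothelial markers was in it, 3 of 5 B and plasma cell markers were in it (summed 6.50 to 6.87 with APRIL and 6.52 to 6.77 in control), and of 5 T and NK cell markers NKG7 alone was, at 10.86 to 12.19 and 10.75 to 10.93. The part of these differences in the results was not tested.

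Messages of the mitochondrial ribosome tended to stand higher in the APRIL libraries, by a small amount that rested in large part on APRIL column 3, and no single member passed the test. The change was positive for 66 of 73 tested members (49.3% of all tested genes) and negative for 7 (50.7%), with a median of +0.29 (1.23-fold) and quartiles of 0.13 and 0.54. Over all 11257 tested genes the median was -0.01 and the quartiles were -0.21 and 0.22. The changes ran from -0.15 in MRPS30 to +1.15 in MRPL12. In the fit without APRIL column 3 the median change was +0.09 (1.06-fold), positive for 54 members (49.8% of all tested genes) and negative for 19 (50.2%). Each library's values also trend with the length and GC content of transcripts, and once these trends were removed the median was +0.16 (1.12-fold), positive for 65 members (47.5%). Weighting each library by its estimated quality gave +0.10, with a weight of 0.117 for APRIL column 3.

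The test was limma across all tested genes, its p adjusted by Benjamini-Hochberg and called under 0.05. It called 0 members higher and 0 lower, as it called 0.0% of all tested genes in either direction, and the smallest adjusted p of a member was 0.40. Limma's voom on the recovered reads called 0 members too. By the authors' deposited table, a p-value under 0.05 with a higher value with APRIL was found for 4 of 74 members (MRPL9, MRPL12, MRPL23 and MRPL28), as for 3.42% of all its genes, and with a lower value for 0 members (5.1%). At an unadjusted p under 0.05 there were 17 members higher (6.25% of all tested genes) and 0 lower (5.69%). These were MRPL2, MRPL4, MRPL9, MRPL12, MRPL20, MRPL21, MRPL23, MRPL28, MRPL36, MRPL38, MRPL55, MRPS11, MRPS12, MRPS18A, MRPS24, MRPS26 and MRPS34. In 7 members no APRIL value was as low as any control value (3.62% of all tested genes), namely MRPL9, MRPL12, MRPL17, MRPL21, MRPL23, MRPL28 and MRPL52, and the reverse held in 0 members (4.19%). The 17 members became 12 (10 of them shared, 4.78% of all tested genes) once APRIL column 3 was left out, 26 (10.6%) for APRIL column 2, 9 (3.44%) for APRIL column 4, 5 (2.43%) for control column 1, 11 (5.3%) for control column 2 and 5 (3.7%) for control column 3, and 4 (4.0%) with trends taken out. The 7 members without overlap became 27 (11.6%) once APRIL column 2 was left out, 14 (6.35%) for control column 2, 11 (5.18%) for control column 3 and 12 (7.0%) for control column 4, and 3 (2.79%) with trends taken out.

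APRIL column 3 held the highest of the 8 values in 66 of 73 tested members. Members there stood on average 0.78 above their own mean over the 8 libraries. That average was -0.01, -0.14 and 0.05 for APRIL columns 1, 2 and 4, and for the control columns in order it was -0.26, -0.21, -0.14 and -0.08. Leaving out no other library moved the median change as far, which lay between 0.28 and 0.39 in those 7 fits. Set against the mean of the control libraries, the median member was higher by 0.14, 0.04, 0.91 and 0.21 in the 4 APRIL columns in order. The control libraries did not form 1 level either, since control columns 1 and 2 held the lowest of the 8 values in 28 and 22 members. Of the recovered reads, 0.650, 0.605, 1.05 and 0.684% fell on members in the APRIL columns in order, and 0.560, 0.578, 0.602 and 0.625% in the control columns. The APRIL shares thus overlapped the control shares through APRIL column 2.

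**Figure D1:**
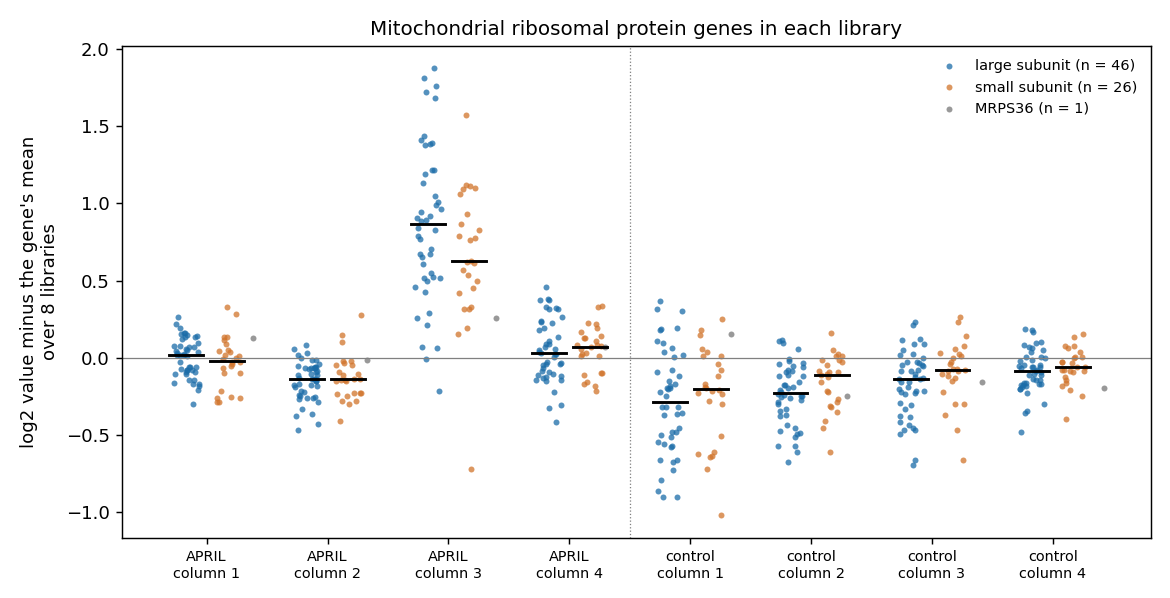
Each point is 1 tested member, drawn as its log2 value minus its own mean over the 8 libraries, for the large subunit (46), the small subunit (26) and MRPS36, with a bar at the median. APRIL column 3 stands above the other 7 libraries for most members, and the other APRIL libraries lie close to or slightly above the control libraries.

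The members also varied together across the libraries. The median pairwise Pearson correlation between members was 0.75 over the 8 libraries, against -0.001 between all tested genes, and it was 0.22 over the 7 libraries without APRIL column 3. With length and GC trends taken out it was 0.45. These correlations describe libraries that share their depth and trends. The median member's reads ran from 94.5 (control column 2) to 360.5 (APRIL column 2), with 114.5 in APRIL column 3, and the lowest count of any member in a library was 6. The median 95% half-width of a member's change was 0.49, wider than the median change itself, so differences of the size most members showed were not detectable in single genes.

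**Figure D2:**
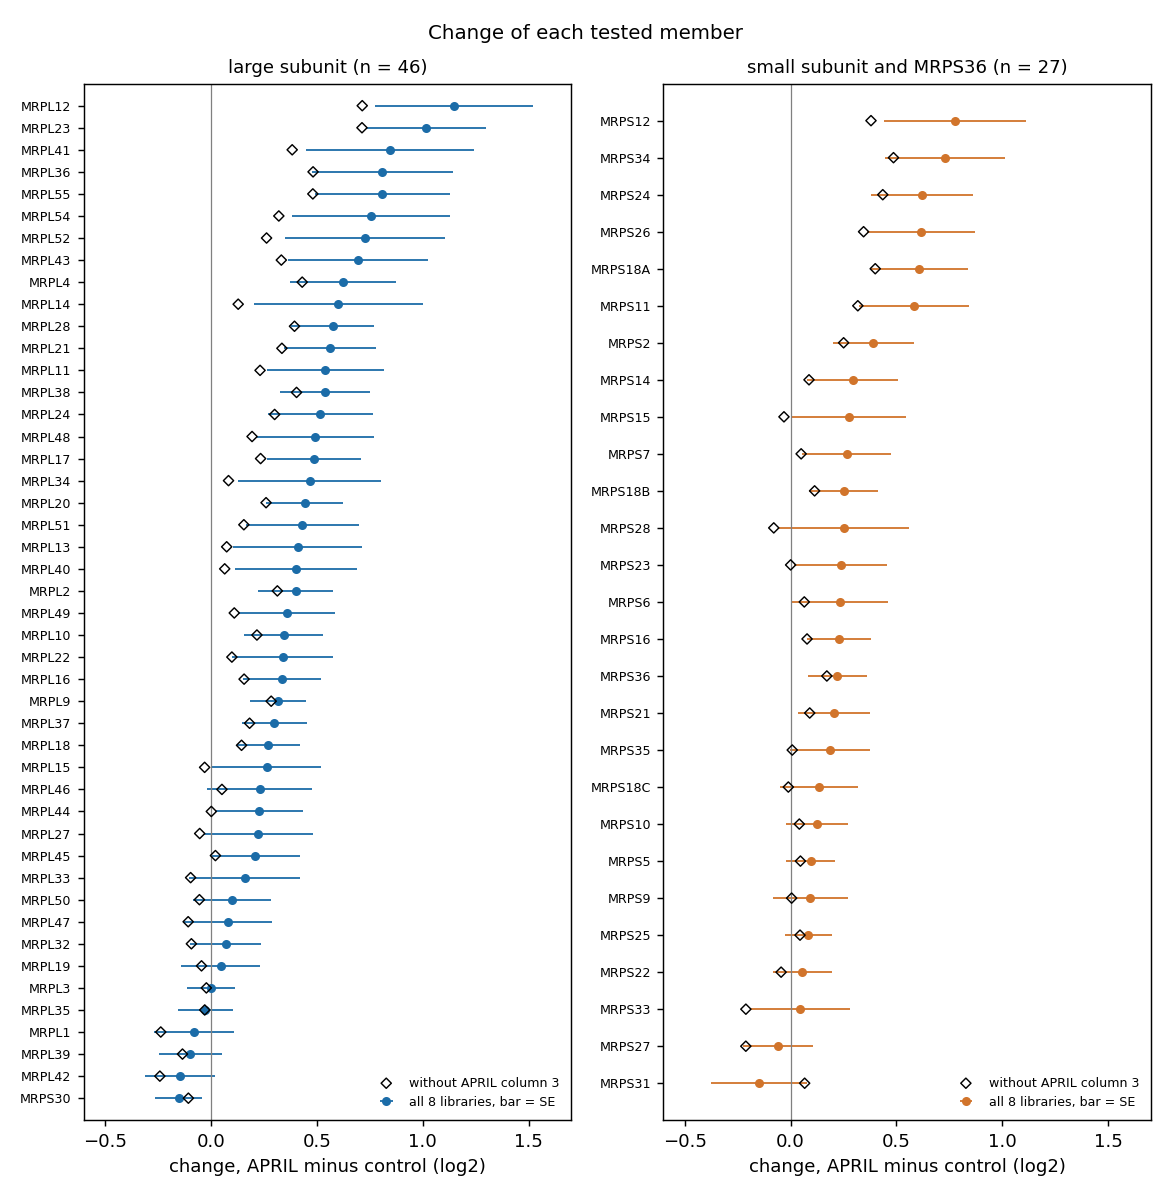
The change of each of the 73 tested members (APRIL minus control, log2) is drawn with its standard error as a bar, and the change without APRIL column 3 as an open diamond. Most circles lie to the right of 0, and the diamonds lie nearer to 0 than the circles in most members, with 19 of them below 0.

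Promoters are shown for members picked by their p in each direction of change. They set beside the values the letters that transcription factors of mitochondrial genes are known to bind. The letters of 4 motifs were searched on both strands of 300 bases (250 before to 50 after the start) in RefSeq promoters of build GRCh38.p14, which gave 65 of the 74 members, 8081 tested genes and 27305 genes in all. Lower case is used throughout and capitals mark an ETS match (CCGGAAG, or CTTCCGG on the opposite strand) or a YY1 match (AAGATGGCG). Among tested members with a promoter, MRPL12, MRPL28 and MRPS18A had the smallest p for a positive change, and MRPS30 and MRPL42 for a negative one. MRPL23, with the smallest p of all members, was not among the 65. Their windows were chr17:81703117-81703416 on the + strand for MRPL12, chr16:370489-370788 on the - strand for MRPL28, chr6:43687742-43688041 on the - strand for MRPS18A, chr5:44808697-44808996 on the + strand for MRPS30 and chr12:93467264-93467563 on the + strand for MRPL42, each read 5′ to 3′ along its gene.
MRPL12: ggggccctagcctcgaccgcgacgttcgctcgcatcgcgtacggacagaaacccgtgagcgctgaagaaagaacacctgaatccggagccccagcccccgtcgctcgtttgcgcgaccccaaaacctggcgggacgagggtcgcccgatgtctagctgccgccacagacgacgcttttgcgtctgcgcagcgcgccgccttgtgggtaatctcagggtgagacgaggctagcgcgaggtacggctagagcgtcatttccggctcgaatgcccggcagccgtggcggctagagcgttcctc
MRPL28: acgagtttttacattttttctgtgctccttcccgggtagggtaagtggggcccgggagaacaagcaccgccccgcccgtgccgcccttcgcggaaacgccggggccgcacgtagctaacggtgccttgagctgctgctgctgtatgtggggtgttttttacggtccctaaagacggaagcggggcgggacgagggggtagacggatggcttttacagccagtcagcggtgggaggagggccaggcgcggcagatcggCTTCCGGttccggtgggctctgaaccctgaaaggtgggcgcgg
MRPS18A: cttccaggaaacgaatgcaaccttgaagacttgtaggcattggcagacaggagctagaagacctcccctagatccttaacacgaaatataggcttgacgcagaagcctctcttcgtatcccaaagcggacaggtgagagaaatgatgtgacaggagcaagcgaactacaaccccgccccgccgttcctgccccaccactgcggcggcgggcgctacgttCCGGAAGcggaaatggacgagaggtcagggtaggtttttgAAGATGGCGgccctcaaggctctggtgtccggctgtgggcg
MRPS30: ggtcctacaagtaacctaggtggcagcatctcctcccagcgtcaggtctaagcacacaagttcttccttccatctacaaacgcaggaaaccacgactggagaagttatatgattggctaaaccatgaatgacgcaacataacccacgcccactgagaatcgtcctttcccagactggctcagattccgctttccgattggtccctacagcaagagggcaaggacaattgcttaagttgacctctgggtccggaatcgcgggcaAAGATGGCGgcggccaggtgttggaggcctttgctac
MRPL42: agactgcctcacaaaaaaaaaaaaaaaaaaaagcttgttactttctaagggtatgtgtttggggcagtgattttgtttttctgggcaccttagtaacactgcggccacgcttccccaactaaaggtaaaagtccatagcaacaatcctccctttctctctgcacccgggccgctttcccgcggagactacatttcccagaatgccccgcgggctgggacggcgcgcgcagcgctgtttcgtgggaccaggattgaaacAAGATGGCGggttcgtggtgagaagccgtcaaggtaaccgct

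The YY1 motif was in 13 member promoters (20.0%), against 4.49% of promoters of tested genes and 1.85% of all promoters. Of its 14 matches 10 began after the transcription start and 12 lay on the strand of the gene, with a median first base at position 9, as the capitals of MRPS18A, MRPS30 and MRPL42 show. The ETS motif, the core that GABP binds, was in 26 member promoters (40.0%), against 21.4% and 10.7%. Its median first base was at -21. The NRF1 motif (CGCANGCG), the site of nuclear respiratory factor, was in 11 (16.9%), against 20.7% and 10.6%. The SP1 motif (GGGCGG) was in 40 (61.5%), against 71.2% and 44.6%, and is not capitalised in the sequences. No NRF1, ETS or YY1 match overlapped another, and 9 members held more than 1 of the 3 kinds. Members with and without a motif had median changes of +0.37 and +0.27 for ETS, +0.25 and +0.29 for YY1, +0.30 and +0.28 for NRF1 and +0.34 and +0.24 for SP1, and these differences were not tested. MRPL12, with the highest change, held none of the 4 motifs in this window, and MRPS30 and MRPL42, with negative changes, held the YY1 motif.

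In the large subunit the change was positive for 41 of 46 tested members, with a median of +0.38 (+0.15 without APRIL column 3, +0.17 with trends taken out). The 28 with a bacterial counterpart had a median of +0.37 and the 18 known from mitochondria alone +0.38. Without APRIL column 3 these medians were +0.15 and +0.13. MRPS30 is counted here, since it sits in the large subunit in spite of its symbol. An unadjusted p under 0.05 with a positive change was found for 11 of the 46, against 6.25% of all tested genes. It was found for 9 without APRIL column 3 (4.78%) and for 3 with trends taken out, near the 4.0% of all tested genes. The 7 members whose groups did not overlap were of this subunit, against 3.62% of all tested genes with APRIL wholly above control.

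MRPL12 is the stalk protein that recruits translation factors, the mitochondrial form of L7/L12, and it also binds the mitochondrial RNA polymerase. It stood at log2 2.01, 1.79, 3.72 and 2.17 with APRIL and at 1.18, 1.36, 1.19 and 1.37 in control, each in the order of the columns, as for the genes that follow. Every APRIL library lay above every control library, with APRIL column 3 well above the other APRIL libraries and the control libraries close together. The change was +1.15 ± 0.37 (2.22-fold, 95% interval 0.32 to 1.98) with a limma p of 0.011 before adjustment and an adjusted p of 0.40. It was +0.71 (unadjusted p = 0.0018) without APRIL column 3 and +0.60 with trends taken out. The reads behind it were 141, 228, 137 and 175 with APRIL and 57, 43, 52 and 94 in control. The other stalk members, MRPL11 and MRPL10 at the stalk base, gave +0.54 ± 0.28 and +0.34 ± 0.19, neither past the test. MRPL11 lay at 3.61, 3.57, 4.89 and 3.81 with APRIL and at 3.38, 3.24, 3.57 and 3.52 in control, and the groups met at APRIL column 2 and control column 3. Without APRIL column 3 the changes of MRPL11 and MRPL10 were +0.23 and +0.22, and MRPL10 stood at +0.18 with trends taken out.

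Around the exit of the nascent chain, MRPL23 carried the smallest p among the 73 members. This protein lines the rim of the exit, where new chains meet the inner membrane. It stood at log2 9.81, 9.53, 10.96 and 9.92 with APRIL and at 8.64, 9.05, 9.08 and 9.38 in control. The groups did not overlap, and APRIL column 2 was nearest to control column 4. The change was +1.01 ± 0.28 (2.02-fold, 95% interval 0.38 to 1.65) with a limma p of 0.0049 before adjustment and an adjusted p of 0.40. It was +0.71 without APRIL column 3 (unadjusted p = 0.0017) and +0.52 with trends taken out. The reads were 236, 367, 155 and 284 with APRIL and 76, 67, 93 and 183 in control.

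The other 5 exit proteins differed among themselves. MRPL17 lay at 7.28, 7.05, 8.15 and 7.12 with APRIL and at 6.84, 6.95, 6.94 and 6.93 in control, without overlap, a change of +0.48 ± 0.22. MRPL24 gave +0.52 ± 0.25 and MRPL22 gave +0.34 ± 0.24, with overlapping groups. MRPL45, which holds the ribosome to the membrane, gave +0.21 ± 0.21 and MRPL47 gave +0.08 ± 0.21. Values for MRPL17, MRPL24, MRPL22, MRPL45 and MRPL47 without APRIL column 3 were +0.23, +0.30, +0.10, +0.02 and -0.11, and with trends taken out they were +0.37, +0.16, +0.43, +0.08 and -0.02. The order of these members thus depended on the setting, except that MRPL47 was lowest in each of the 3.

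The central protuberance, the crown of the large subunit that faces the small one, had 6 tested members with positive changes and a median of +0.34 (+0.11 without APRIL column 3). MRPL38 lay at 5.07, 4.98, 5.73 and 5.51 with APRIL and at 4.47, 5.15, 4.62 and 4.89 in control, where control column 2 exceeded 2 APRIL libraries. Its change was +0.54 ± 0.21 (+0.40 without APRIL column 3, +0.10 with trends taken out). The changes of MRPL48, MRPL40, MRPL18, MRPL46 and MRPL27 were +0.49 ± 0.28, +0.40 ± 0.29, +0.27 ± 0.15, +0.23 ± 0.25 and +0.22 ± 0.26. Leaving out APRIL column 3 gave +0.19, +0.07, +0.14, +0.05 and -0.05 for the same genes, so that MRPL27 turned negative. With trends taken out MRPL40, MRPL18 and MRPL46 stood at +0.01, +0.03 and +0.45.

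Of the remaining large subunit proteins, MRPL28 and MRPL21 combined a small p with separate groups. MRPL28, which has a bacterial counterpart, lay at 5.56, 5.42, 6.31 and 5.80 with APRIL and at 5.0, 5.25, 5.40 and 5.13 in control, and control column 3 came close to APRIL column 2. Its change was +0.57 ± 0.20, with +0.39 without APRIL column 3 and +0.20 with trends taken out. MRPL21, the counterpart of bacterial L21, lay at 7.69, 7.37, 8.43 and 7.52 with APRIL and at 6.96, 7.30, 7.18 and 7.32 in control. APRIL column 2 there exceeded control column 4 by less than the control libraries differed among themselves. The change of MRPL21 was +0.56 ± 0.22 (+0.34 without APRIL column 3, +0.27 with trends taken out).

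MRPL9 showed separate groups with little part of APRIL column 3. It lay at 4.25, 4.08, 4.35 and 4.33 with APRIL and at 3.98, 3.97, 3.79 and 4.01 in control, a change of +0.32 ± 0.13. The 4 APRIL values were close together, and the change was +0.28 without APRIL column 3 but +0.04 with the length and GC trends removed. MRPL52, a protein of mitochondrial ribosomes alone, was the reverse case. It lay at 5.07, 4.99, 6.97 and 5.27 with APRIL and at 4.84, 4.84, 4.80 and 4.91 in control, a change of +0.73 ± 0.38 that was +0.26 without APRIL column 3 and +0.66 with trends taken out. APRIL column 3 exceeded the next APRIL library by far more than the other 7 libraries differed.

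Overlapping groups with wide changes were found in 7 further large subunit members. MRPL41, MRPL36, MRPL55 and MRPL54 gave +0.85 ± 0.40, +0.81 ± 0.33, +0.81 ± 0.32 and +0.76 ± 0.37, and MRPL43, MRPL4 and MRPL14 gave +0.70 ± 0.33, +0.62 ± 0.25 and +0.60 ± 0.40. In that order their values without APRIL column 3 were +0.38, +0.48, +0.48, +0.32, +0.33, +0.43 and +0.13, and with trends taken out +0.16, +0.21, +0.41, +0.23, +0.44, +0.14 and +0.23. MRPL41 had the GC-richest longest transcript among these, at 71.9%. With trends taken out and APRIL column 3 left out, MRPL41, MRPL54 and MRPL14 turned negative, at -0.10, -0.01 and -0.07. The remaining 13 large subunit members with a positive change ran from +0.05 in MRPL19 to +0.47 in MRPL34, and from -0.10 in MRPL33 to +0.31 in MRPL2 without APRIL column 3.

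**Figure D3:**
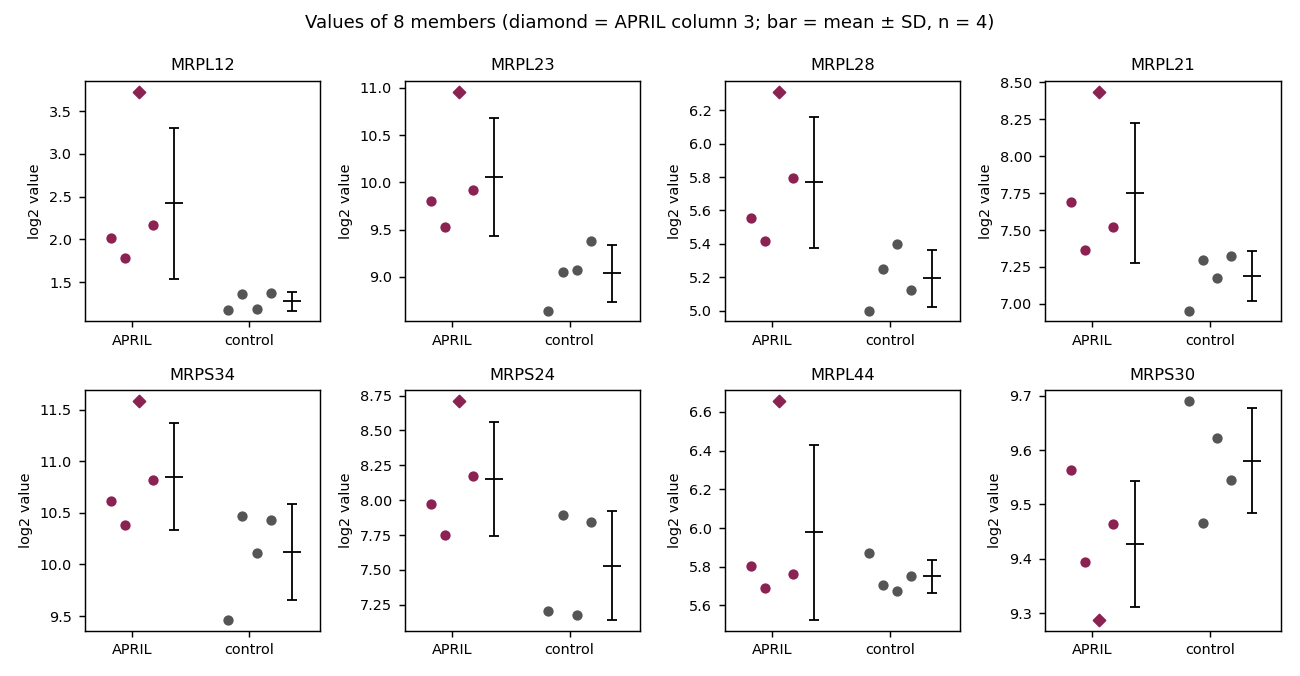
Log2 values of 8 members are drawn per library, with a diamond for APRIL column 3 and a bar for the mean ± SD of each group (n = 4). MRPL12, MRPL23, MRPL28 and MRPL21 show groups that do not overlap, MRPS34 and MRPS24 overlap through 2 control libraries each, MRPL44 is apart in APRIL column 3 alone, and MRPS30 is highest in control column 1.

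In the small subunit the change was positive for 24 of 26 tested members, with a median of +0.23, and 6 had an unadjusted p under 0.05 with a positive change (6.25% of all tested genes). That number was 3 without APRIL column 3 (4.78%) and 1 with trends taken out, near the 4.0% of all tested genes. MRPS18A is among these 26 by its symbol although it sits in the large subunit. Placed there instead, it leaves 23 of 25 positive with a median of +0.23 and 5 under that p in the small subunit, and gives 42 of 47, +0.40 and 12 in the large one. Leaving out APRIL column 3 gave a median of +0.06, and removing the trends gave +0.15. The 17 with a bacterial counterpart had positive changes without exception (median +0.25, and 14 of 17 without APRIL column 3), and the 9 known from mitochondria alone had a median of +0.08. No small subunit member had separate groups, which few of all tested genes had either (3.62% wholly above control and 4.19% wholly below). The difference between the subunits was not tested.

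MRPS34, a protein of mitochondrial ribosomes alone whose loss causes inherited disease of the respiratory chain, lay at log2 10.62, 10.38, 11.58 and 10.82 with APRIL and at 9.46, 10.47, 10.11 and 10.43 in control. APRIL column 2 lay below control columns 2 and 4, and control column 1 was far below the others. The change was +0.73 ± 0.28 (adjusted p from limma = 0.40), +0.49 without APRIL column 3 and +0.18 with trends taken out. MRPS12, the counterpart of bacterial S12 at the decoding centre, lay at 7.40, 7.16, 8.96 and 7.58 with APRIL and at 6.75, 7.17, 7.09 and 6.99 in control. Its change was +0.77 ± 0.34, the widest in the small subunit, and +0.38 both without APRIL column 3 and with trends taken out. APRIL columns 1 and 4 exceeded the control libraries by a modest step, while APRIL column 2 was level with control column 2.

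MRPS24, which shares its fold with bacterial S3 at the mRNA entry, lay at 7.98, 7.75, 8.71 and 8.18 with APRIL and at 7.21, 7.89, 7.18 and 7.84 in control. The control libraries fell into a low and a high pair, and the high pair exceeded APRIL column 2. The change was +0.62 ± 0.24, +0.44 without APRIL column 3 and +0.49 with trends taken out. MRPS18A, 1 of 3 counterparts of bacterial S18, lay at 3.97, 3.54, 4.61 and 3.83 with APRIL and at 3.06, 3.57, 3.38 and 3.50 in control. APRIL column 2 fell inside the control range there, and the other APRIL libraries lay above it. Its change was +0.61 ± 0.23, +0.40 without APRIL column 3 and +0.21 with trends taken out.

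MRPS26 and MRPS11, a protein of the platform, gave +0.62 ± 0.25 and +0.58 ± 0.26. Both changes were smaller without APRIL column 3, at +0.35 and +0.32, and with trends taken out they were +0.10 and +0.60. MRPS7, a protein of the small subunit head tied to inherited disease, gave +0.26 ± 0.21 and +0.05 without APRIL column 3 (+0.08 with trends taken out). MRPS22, tied to inherited disease, gave +0.06 ± 0.14 and -0.04 without APRIL column 3. MRPS17, a counterpart of bacterial S17, was under the floor on low values (1 on the linear scale, in 4 libraries) and was not tested. It lay at -0.28, -0.38, 0.86 and -0.55 with APRIL and at -0.35, -0.48, -0.13 and -1.14 in control, so that it too was highest in APRIL column 3. The remaining 16 small subunit members ran from +0.05 in MRPS33 to +0.39 in MRPS2, and from -0.21 to +0.25 in the same genes without APRIL column 3. MRPS36, a subunit of the 2-oxoglutarate dehydrogenase complex in spite of its symbol, gave +0.22 ± 0.14, and +0.17 without APRIL column 3 (+0.13 with trends taken out).

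A change near 0 was found in MRPL3, and in MRPL44 once APRIL column 3 was left out. Other members were near 0 without that library too, such as MRPS23 (+0.0006) and MRPS9 (+0.0053). MRPL3, a core protein near the peptidyl transferase centre, had up to 2014 reads in a library. It lay at 5.74, 5.72, 5.77 and 5.59 with APRIL and at 5.72, 5.70, 5.62 and 5.78 in control, with the 8 libraries close together and the groups mixed. Its change was +0.0009 ± 0.11 with a 95% interval of -0.25 to 0.26. MRPL44, a protein with a ribonuclease III-like fold, lay at 5.81, 5.69, 6.65 and 5.76 with APRIL and at 5.87, 5.71, 5.67 and 5.75 in control. APRIL column 3 alone was apart, and the change of +0.23 ± 0.21 was +0.0021 without it and +0.12 with trends taken out.

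Negative changes were found in MRPS30, MRPL42, MRPS31, MRPL39, MRPL1, MRPS27 and MRPL35. MRPS30 lay at 9.56, 9.39, 9.29 and 9.46 with APRIL and at 9.69, 9.47, 9.62 and 9.54 in control, where APRIL column 3 was the lowest library and the groups overlapped. Its change was -0.15 ± 0.11. MRPL42, MRPS31 and MRPL39 gave -0.15 ± 0.16, -0.15 ± 0.23 and -0.10 ± 0.15, and MRPL1, MRPS27 and MRPL35 gave -0.08 ± 0.19, -0.06 ± 0.17 and -0.03 ± 0.13. Without APRIL column 3, MRPS30 stood at -0.11, MRPL42 at -0.24, MRPL1 at -0.24 and MRPS27 at -0.21, and MRPS31, which had 6 reads in APRIL column 3, at +0.07. With trends taken out MRPS30, MRPL42, MRPS27 and MRPL35 had positive changes, of +0.05, +0.21, +0.09 and +0.11. MRPS31, MRPL39 and MRPL1 stood at -0.25, -0.25 and -0.17 in that fit. The transcript length used there for MRPL42 was 15582 bases, the longest of any tested member, and its part in the turn was not tested. None of the 7 passed the test.

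The members' changes followed the GC content of their transcripts. Over the 73 tested members Spearman's rho between the change and the GC content of the longest transcript was 0.81, and 0.81 again without APRIL column 3. These points share the same 8 libraries, and control column 1 and APRIL column 4 had the strongest trends with GC content. Among 29 members under 45% GC the median change was +0.13, with 22 positive (27.5% of all tested genes in that band) and 0 at an unadjusted p under 0.05. Among 24 members from 45 to 55% GC it was +0.31, with 24 positive (49.8% of all tested genes in that band) and 4 under that p. The 20 members at 55% GC or more had a median of +0.62, and 13 of the 17 members under that p were here. All 20 were positive, as were 78.9% of all tested genes in that band. The share of all tested genes under that p was not counted per band, so the counts of 0, 4 and 13 have no background beside them. All tested genes had medians of -0.15, -0.0017 and +0.22 in the same bands, so the members stood above their band in each.

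Without APRIL column 3 the members' medians in the 3 bands were -0.03, +0.15 and +0.38, against -0.14, +0.01 and +0.20 for all tested genes. With trends taken out they were +0.13, +0.17 and +0.21, against -0.01 in each band for all tested genes. In that fit MRPL12, MRPL17, MRPL23 and MRPS24 had an unadjusted limma p under 0.05, as did 4.0% of all tested genes in the higher direction. The members' transcripts were short, with a median longest transcript of 1717 bases against 3630 for tested genes, while their median GC content of 47.6% was near the 47.9% of tested genes.

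**Figure D4:**
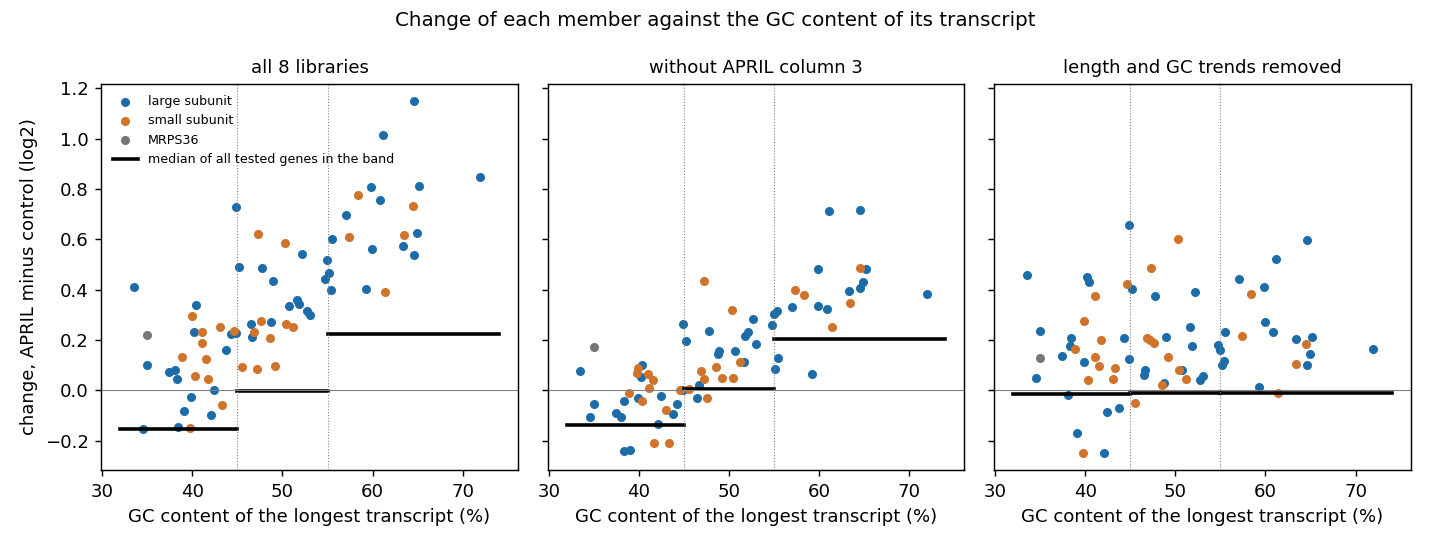
The change of each tested member is drawn against the GC content of its longest transcript, with all 8 libraries, then with 7 of them (APRIL column 3 left out), and last after removal of the length and GC trends, and black lines give the median of all tested genes per band (edges at 45 and 55% GC). In the third panel the black lines are level near 0, and the members' medians per band, at +0.13, +0.17 and +0.21, still rise with GC content but span less than in the first 2 panels.

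Some mitochondrial ribosomal proteins carry other symbols and were not picked by the rule. Of 7 tested, 6 had a positive change, with a median of +0.51 (+0.25 without APRIL column 3, +0.21 with trends taken out), and 0 passed the test. AURKAIP1, a small subunit protein also known as an Aurora A partner, lay at 5.62, 5.39, 7.05 and 5.86 with APRIL and at 4.96, 5.53, 5.29 and 5.30 in control, a change of +0.71 ± 0.32 that was +0.35 without APRIL column 3 and +0.09 with trends taken out. GADD45GIP1, a large subunit protein at the chain exit, gave +0.63 ± 0.32 (+0.25 without APRIL column 3) and MRP63 gave +0.60 ± 0.29 (+0.28). ICT1, a hydrolase that frees stalled chains, gave +0.51 ± 0.23 (+0.27) and CHCHD1 gave +0.41 ± 0.28 (+0.08). The GTP-binding protein DAP3 gave +0.17 ± 0.14 (+0.06). With trends taken out GADD45GIP1, MRP63, ICT1, CHCHD1 and DAP3 stood at +0.27, +0.51, +0.21, +0.24 and +0.10. PTCD3, an RNA-binding pentatricopeptide repeat protein, had the negative change, of -0.23 ± 0.19 (-0.06, and +0.0032 with trends taken out).

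Factors that work with the mitochondrial ribosome had changes in both directions. Among 16 tested translation factors 7 had a positive change and 9 a negative one, with a median of -0.05 (-0.01 without APRIL column 3), and 1 in each direction had an unadjusted p under 0.05, a share like the 6.25% (higher) and 5.69% (lower) of all tested genes. TUFM, the elongation factor that brings tRNA to the ribosome, lay at 5.73, 5.58, 5.93 and 5.84 with APRIL and at 5.07, 5.53, 5.48 and 5.57 in control. Its groups did not overlap, with APRIL column 2 just above control column 4, and its change was +0.36 ± 0.15 (+0.09 with trends taken out). MTIF2, an initiation factor, lay at 5.56, 5.44, 5.06 and 5.27 with APRIL and at 6.06, 5.63, 5.63 and 5.70 in control. Each APRIL value was below each control value, and the change of -0.42 ± 0.16 was -0.33 without APRIL column 3 and -0.41 with trends taken out.

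Among 23 tested genes of mitochondrial ribosome assembly 18 had a positive change, with a median of +0.11 (+0.08 without APRIL column 3). MALSU1, which binds the large subunit during assembly, had the smallest p at +0.37 ± 0.15, and GTPBP10, an assembly GTPase, the lowest p among negative changes at -0.11 ± 0.14 (+0.19 with trends taken out). Among 20 genes of mitochondrial transcription and RNA processing 13 had a positive change, with a median of +0.07 (+0.03 without APRIL column 3). SLIRP, which stabilises mitochondrial mRNAs, gave +0.47 ± 0.20 and did not overlap between groups (+0.28 without APRIL column 3, +0.29 with trends taken out). PNPT1, the mitochondrial polynucleotide phosphorylase, gave -0.21 ± 0.11, wholly below control (-0.04 with trends taken out). Of the genes in these 3 lists 0 passed limma's adjusted threshold, and the differences between the lists and the ribosomal proteins were not tested.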

How the data were processed

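The deposited table gives, per the file headers, log2 values that the authors scaled with a TMM factor per library. Per the file headers it also holds the authors' deposited p-value and fold for APRIL against control, the log10 of that p-value and a signed score made from both, which served to check the scale of the log2 values and, for the p-value and fold, to count members called there. Alignment used TopHat2 2.0.13 on build hg19, with bcl2fastq, per the submitters' processing notes. Neither the read counter nor the annotation is named there.

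Members, lists and tests were chosen with earlier results of these data known. Named genes are the members with the smallest p in each direction (8 at most), the members of 3 structural lists and of a list tied to the decoding centre or disease, ribosomal proteins with other symbols, and the smallest p of 3 wider lists per direction. Other members given by name were named after their values were seen.

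The main test was limma 3.58.1 in R 4.3.3 (trend, robust, two-sided), with the group as the only term, on genes whose value reached 1 on the linear scale in 4 or more libraries (11257 tested, 273 left out, the member MRPS17 among them). Simulated data were used to test the fit. Whole reads came from values that were log2 of reads plus 0.5 over a whole-number divisor, for 96.9% of genes and all 74 members, and for 0 of 500 genes with moved constants. The divisor need not be a gene's length, so levels are not compared between genes. Recovered reads served depth and voom. Length and GC content came from the longest transcript in GENCODE release 29 (73 of 73 tested members, 96.0% of tested genes), and their trends were removed with splines (4 df each). Gene symbols of 11 rows were dates and are not named. Figures used matplotlib 3.10.9 and counts pandas 2.3.3 with numpy 2.4.6, in Python 3.11.15.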

Additional observations from a re-analysis of the deposited data

Results flagged for a closer look

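In 5 of 92 groups of 4 values, 1 value stood unusually far from the other 3 (Dixon's test at 95%). Chance puts either the highest or the lowest value that far in about 5% of groups. The value was the highest of its group in each of the 5. In 4 of the 5 it was APRIL column 3, in genes of the mitochondrial ribosome. MRPL27 was at log2 5.85 there and between 4.66 and 4.82 in the other APRIL libraries. MRPL44 was at 6.65 against 5.69 to 5.81. CHCHD1, a small subunit protein, was at 9.43 against 8.07 to 8.12, and GADD45GIP1, a large subunit protein, at 10.87 against 9.21 to 9.47. The fifth was MTIF2, the initiation factor, at 6.06 in control column 1 against 5.63 to 5.70 in the other control libraries. The 92 groups did not take in every member, so 5 of 92 is not a share of the members. Other members were not screened, and APRIL column 3 stood far from the other APRIL libraries in several of them. MRPL51 was at 8.32 there against 7.20 to 7.22, MRPS33 at 4.75 against 3.71 to 3.75 and MRPL52 at 6.97 against 4.99 to 5.27. MRPL13 was at 2.60 against 1.12 to 1.34 and MRPL43 at 8.13 against 6.51 to 6.76. In others it did not, as in MRPL9 at 4.35 against 4.08 to 4.33. No count of them was made.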

How the results depend on the processing

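No member was called under any of the 17 alternatives, and of 764 values of 45 named genes under them 717 kept their direction and 47, in 15 genes, did not. The median change of the members was positive throughout, lowest without APRIL column 3 (+0.09) and +0.10 with library quality weights. No paired analysis was possible because the columns carry no replicate number. An alternative chosen after seeing the data removes the length and GC trends and leaves out APRIL column 3. The fit without APRIL column 3 and control column 1 rests on the data too, since these libraries stood apart most by their values. Causes were not tested.

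The 17 members higher at an unadjusted p under 0.05 were 5 to 26 when 1 library was left out (5 without control column 1 or control column 3, 26 without APRIL column 2), 9 without APRIL column 3 and control column 1 (4.04% of all tested genes), 4 with the trends removed (4.0%) and 4 with that and without APRIL column 3 (3.47%). Members lower at that p were 2 with quality weights (8.74%) and 1 without APRIL column 3 and control column 1 (3.47%). Members wholly above control (7) were 3 with the trends removed (2.79%) and 7 to 27 with 1 library left out, and those wholly below (0) were 4 without APRIL column 3 and control column 1 (7.45%) and 0 to 2 with 1 library left out (2 without APRIL column 3, against 5.85%).

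The lists here cover the 45 named genes. Other members turned too, such as MRPS2 (-0.0113) and MRPL33 (-0.0698) with the trends removed. Without APRIL column 3 as well, MRPL41 (-0.1033), MRPL14 (-0.0718) and MRPL54 (-0.0067) did. Among the named genes direction turned with the trends removed for MRPS30 (+0.0489), MRPL42 (+0.2069), MRPS27 (+0.0901), MRPL35 (+0.1105), MRPL47 (-0.0181), MRPL3 (-0.0863), PTCD3 (+0.0032) and GTPBP10 (+0.1863). With that and without APRIL column 3 it turned for MRPS30 (+0.0953), MRPL42 (+0.0058), MRPS31 (+0.1258), MRPL35 (+0.0980), MRPL47 (-0.0329), MRPL27 (-0.0106), MRPL40 (-0.1810), MRPS7 (-0.0216), PTCD3 (+0.0779), AURKAIP1 (-0.0707) and GTPBP10 (+0.1086). Quality weights turned MRPS31 (+0.1600), MRPL27 (-0.1391), MRPL46 (-0.0199) and PTCD3 (+0.0397), voom turned MRPS31 (+0.0194) and centring on library medians turned MRPL3 (-0.0083). Without APRIL column 3 and control column 1 it turned for MRPS31 (+0.0286), MRPL27 (-0.1661), MRPL46 (-0.0762), MRPS7 (-0.0058), MRPS22 (-0.0152), MRPL3 (-0.0153) and PTCD3 (+0.0329). With 1 library left out, changes of both signs were found for MRPS31 (-0.2842 to +0.0668), MRPL47 (-0.1072 to +0.2043), MRPL27 (-0.0528 to +0.3435), MRPS22 (-0.0444 to +0.1172), MRPS27 (-0.2110 to +0.0072), MRPL35 (-0.0949 to +0.0400), MRPL3 (-0.0271 to +0.0391) and GTPBP10 (-0.1760 to +0.0009).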
